A study of Mus musculus with 6 samples.

Results

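Basement membrane collagens and laminins were examined in mouse liver, as 10 genes chosen by symbol out of the 24346 rows of the deposited table. They were the collagen IV chains Col4a1 and Col4a2, the collagens Col15a1 and Col18a1, the laminin chains Lama5, Lamb1, Lamb2 and Lamc1, and the linker proteins Nid1 and Hspg2. All 10 symbols were found in the table. In the comparison, 3 control livers were set against 3 lipophagy-induced livers, which addresses how the matrix of the liver changed when autophagy of lipid droplets was switched on in a model of nonalcoholic steatohepatitis (NASH). Male C57BL/6J mice (C57BL/6 in the labels) were put on CDAHFD, a high-fat diet with L-amino acids in place of protein and without choline, at 8 weeks of age, stayed on it for 6 weeks, and were analysed after a further 2 weeks on normal chow. Both groups had received an adeno-associated virus of serotype AAV8 whose liver-specific TBG promoter drove a lipid droplet-targeting sequence (LDTS) fused to a part of optineurin that binds LC3. In lipophagy mice that part was the engineered LC3-interacting region (LDTS-eLIR), and in control mice it was the mutant without affinity for LC3 (LDTS-LIR mut), so the vector and the droplet-targeting part were common to both. The promoter is active in hepatocytes. The LDTS was taken from mouse Plin1 cDNA, and expression of the adapter itself was not checked here. The labels number the livers and do not state that each came from its own mouse, so p-values measure the spread between these samples.

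A basement membrane is a thin sheet of extracellular matrix that lies under epithelia and around blood vessels. Its backbone consists of a laminin network and a collagen IV network, which nidogens and the heparan sulfate proteoglycan perlecan tie together. Healthy liver sinusoids lack a continuous basement membrane, and its build-up in the space of Disse is known as capillarization of the sinusoids, a feature of liver fibrosis. In the liver these proteins come from endothelial cells, stellate cells, bile duct cells and, for collagen XVIII, hepatocytes.

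Levels were the authors' FPKM values, fragment counts divided by transcript length and by library size, which can be compared between genes because they are per length. From the steps of 1 fragment in the low values, the depth was estimated at 23400000 to 34800000 fragments per liver. The sum of FPKM over all genes was 622696 to 681138 in control livers and 709993 to 782392 in lipophagy livers, without overlap, and its part in the values of the members was examined only by the rescaling to the same sum given with the other settings. The label liver was checked with 12 hepatocyte markers, of which 12 passed the filter on low values and which had by far the highest summed level of the marker lists. Changes are differences of log2(FPKM + 1) between the group means, tested with limma over the 11493 genes whose mean reached 0.5 FPKM, and p-values were adjusted over these by the Benjamini-Hochberg method. The smallest p that an exact permutation test of 3 livers against 3 can give is 0.1. Because whole liver was sequenced, fewer cells of a type and less RNA per cell cannot be told apart.

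Of the 10 members, 9 had a lower mean in the lipophagy-induced livers, among them both collagen IV chains, all 4 laminin chains and both linkers. The log2 change of the laminin chain Lamb1 was 0.01 with quantile normalization. Col18a1, by far the most abundant member, was slightly higher. Its log2 change was below 0 with quantile normalization and after rescaling each liver to the same sum of FPKM. In 7 of the 10 members all 3 lipophagy livers lay below all 3 control livers (Col4a1, Col4a2, Lama5, Lamb2, Lamc1, Nid1 and Hspg2). In 2 members, Col15a1 and Lamb1, the groups overlapped, and in 1, Col18a1, all 3 lipophagy livers lay above the controls. Lama5 did not reach the filter on low values, so 9 members were tested. Of these 9, 6 had lipophagy livers below all control livers, against 10.8% of all tested genes, and 1 had them above, against 15.4%. With quantile normalization the 6 became 3 (Col4a1, Lamc1 and Nid1), against 10.2% of all tested genes, and Col4a2, Lamb2 and Hspg2 overlapped. An unadjusted p below 0.05 (limma) with a lower mean was found for 4 of the 9 members (Col4a1, Col4a2, Lamc1 and Nid1), against 7.97% of all tested genes, and with a higher mean for 0, against 11.5%. After adjustment over all tested genes 0 of the 9 passed (limma), where 0.0261% of all genes did. The median log2 change of the 9 members was -0.21, against 0.02 over all tested genes, and it was -0.13 with quantile normalization. The values of the single members below are therefore descriptions with their spread.

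**Figure D1:**
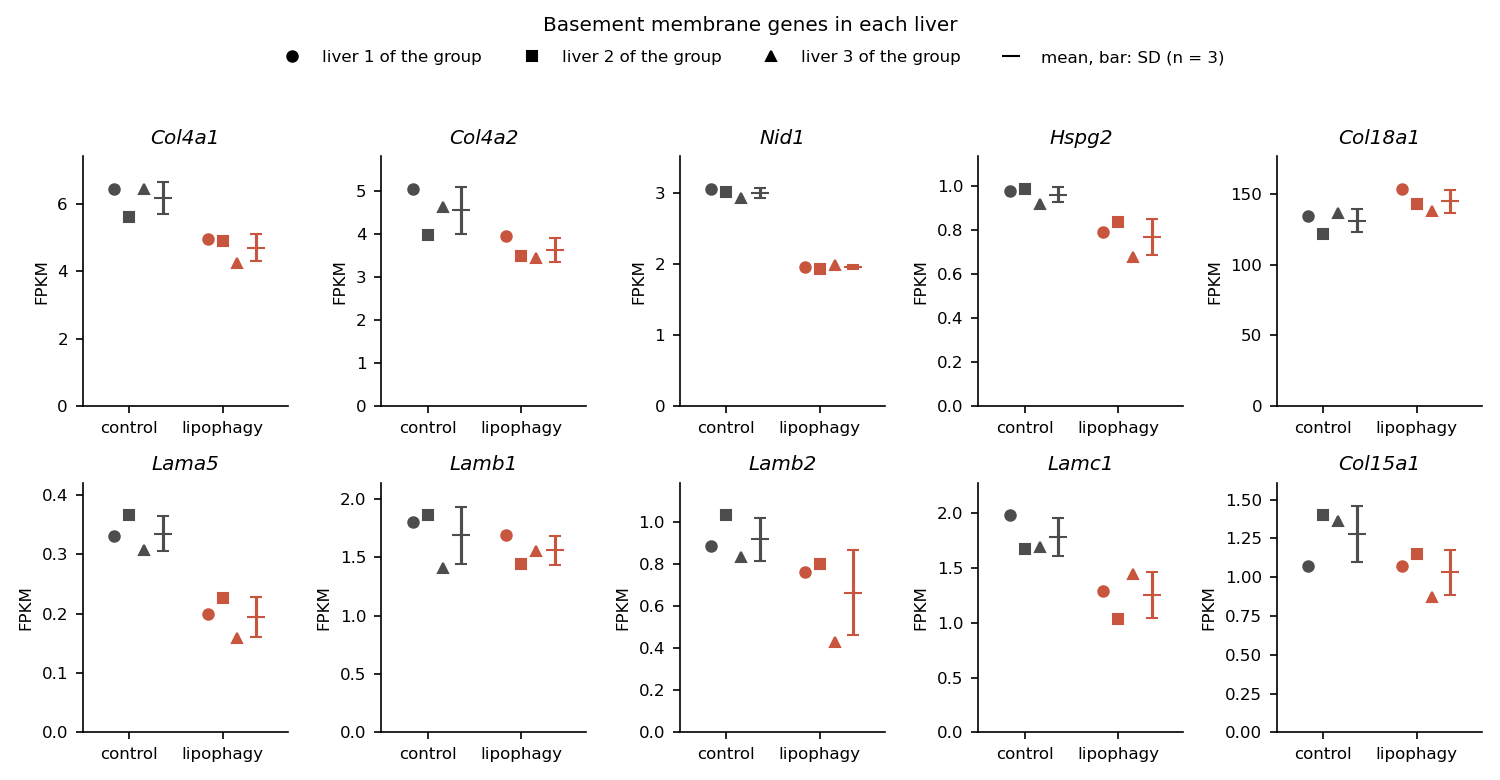
FPKM (y axis, from 0) of the 10 basement membrane genes in each of the 3 control and 3 lipophagy livers, with the group mean and SD beside the points. The Nid1 groups are the tightest (2.93 to 3.06 against 1.93 to 1.98 FPKM), Lamb1 and Col15a1 overlap, and Col18a1 is the one panel in which the lipophagy livers lie above the controls.

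Nid1 encodes nidogen-1, the rod-shaped glycoprotein that binds the laminin gamma 1 chain and collagen IV and so joins both networks. Nid1 was at 3.06, 3.02 and 2.93 FPKM in control livers 1, 2 and 3 and at 1.96, 1.93 and 1.98 FPKM in lipophagy livers 1, 2 and 3. The groups were far apart relative to their spread. The mean went from 3.0 ± 0.0673 (SD, n = 3) to 1.96 ± 0.0264 FPKM (SD, n = 3), a difference of -34.9%. The log2 change was -0.44 with a standard error (SE) of 0.071 and an adjusted p of 0.093 (limma), the lowest adjusted p among the members. The SD of 2.24% and 1.35% of the mean was below the counting error of 4.08% to 6.13% estimated for the 266 to 601 Nid1 fragments per liver. Nid2, which encodes the second nidogen and is not a member, was at 1.13, 1.32 and 1.11 FPKM in control livers and 1.51, 0.968 and 1.04 FPKM in lipophagy livers, with overlapping groups. The ratio of Nid1 to Nid2 came to 2.70, 2.28 and 2.65 in control livers and 1.30, 1.99 and 1.90 in lipophagy livers. This ratio was chosen after its values were seen and is given without a test.

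The promoter window of Nid1, the tested member with the largest change of log2(FPKM + 1), is printed from RefSeq (GRCm38.p6, chr13:13437352-13437651, plus strand, from 250 bases before to 50 bases after the start). Capitals mark the GC box, here the letters GGGCGG on either strand, a motif bound by Sp1-type factors.
Nid1: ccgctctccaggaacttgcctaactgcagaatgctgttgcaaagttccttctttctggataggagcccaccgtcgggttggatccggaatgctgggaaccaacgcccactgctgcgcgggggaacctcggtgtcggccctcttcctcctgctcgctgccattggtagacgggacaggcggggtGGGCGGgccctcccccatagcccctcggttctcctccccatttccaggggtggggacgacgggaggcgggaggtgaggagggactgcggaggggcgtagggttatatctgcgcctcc
The window holds 1 GC box and 1 CCAAT box (CCAAT, either strand) and 0 TATA boxes (TATAAA, either strand). Over all 32851 promoter windows of the table, 35.7% hold a GC box, 37.4% a CCAAT box and 13.6% a TATA box. The gene itself lies on chromosome 13, from 13437551 to 13512269 (GENCODE M21, GRCm38).

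Hspg2 encodes perlecan, the large heparan sulfate proteoglycan that binds nidogen, laminin and collagen IV. Hspg2 was at 0.976, 0.987 and 0.920 FPKM in control livers and at 0.790, 0.834 and 0.678 FPKM in lipophagy livers. All lipophagy livers were lower, although lipophagy liver 2 lay close to control liver 3. The mean was 0.961 ± 0.0357 in control and 0.767 ± 0.0805 FPKM in lipophagy livers (SD, n = 3), a difference of -20.2%. The log2 change was -0.15 (SE 0.075, adjusted p = 0.304, limma), -0.065 with quantile normalization and -0.29 with a pseudocount of 0.1. Because of its long transcript, Hspg2 still rested on 240 to 448 fragments per liver. The ratio of Nid1 to Hspg2 was 3.14, 3.06 and 3.18 in control livers and 2.49, 2.31 and 2.92 in lipophagy livers, lower in all 3 of them. The difference of the log2 ratio was -0.29 (two-sided exact permutation test, p = 0.1, 0.375 after adjustment over the 5 ratios compared).

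Col4a1 and Col4a2 encode the alpha 1 and alpha 2 chains that assemble into the common collagen IV trimer, in which alpha 1 outnumbers alpha 2. Col4a1 was at 6.45, 5.62 and 6.44 FPKM in control livers and at 4.96, 4.90 and 4.25 FPKM in lipophagy livers. Col4a2 was at 5.04, 3.96 and 4.62 FPKM in control livers and at 3.94, 3.48 and 3.44 FPKM in lipophagy livers. Both chains were lower in every lipophagy liver, but the gap was wide for Col4a1 and almost closed for Col4a2 between control liver 2 and lipophagy liver 1. The mean of Col4a1 differed by -23.8% (6.17 ± 0.474 against 4.70 ± 0.392 FPKM, SD, n = 3), with a log2 change of -0.33 (SE 0.09, adjusted p = 0.153, limma). That of Col4a2 differed by -20.2% (4.54 ± 0.545 against 3.62 ± 0.277 FPKM, SD, n = 3), with a log2 change of -0.26 (SE 0.098, adjusted p = 0.219, limma). The unadjusted p of Col4a2 was below 0.05 in 2 of the 6 fits that left out 1 liver each and not without control liver 1 (log2 change -0.19), control liver 3 (-0.25), lipophagy liver 2 (-0.24) or lipophagy liver 3 (-0.23).

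The proportion of the 2 chains differed by less than its spread. The ratio of Col4a1 to Col4a2 was 1.28, 1.42 and 1.39 in control livers and 1.26, 1.41 and 1.24 in lipophagy livers. Its log2 value was 0.45 ± 0.0798 in control and 0.38 ± 0.101 in lipophagy livers (SD, n = 3), a difference of -0.07 that was smaller than either SD (two-sided exact permutation test, p = 0.3, adjusted p = 0.375). Other collagen IV chains were low. Col4a5, the chain of another collagen IV trimer, was at 0.361, 0.520 and 0.523 FPKM in control livers and at 0.223, 0.336 and 0.194 FPKM in lipophagy livers, and was below the filter. Col4a3, Col4a4 and Col4a6 had means of at most 0.134 FPKM in either group.

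Col4a1 and Col4a2 are neighbours on chromosome 8 that are read in opposite directions from a common region. Col4a1 spans 11198423 to 11312826 on the minus strand and Col4a2 spans 11312805 to 11449287 on the plus strand (GENCODE M21, GRCm38). Their models overlap by 22 bases at the starts, and the library kit keeps the strand, but how strand was used in counting is not given in the sources used here. The promoter windows from RefSeq (GRCm38.p6) are printed because both members had lower values in every lipophagy liver. They are chr8:11312777-11313076 on the minus strand for Col4a1 and chr8:11312555-11312854 on the plus strand for Col4a2, and capitals mark the 78 bases that both windows share, as reverse complements of each other.
Col4a1: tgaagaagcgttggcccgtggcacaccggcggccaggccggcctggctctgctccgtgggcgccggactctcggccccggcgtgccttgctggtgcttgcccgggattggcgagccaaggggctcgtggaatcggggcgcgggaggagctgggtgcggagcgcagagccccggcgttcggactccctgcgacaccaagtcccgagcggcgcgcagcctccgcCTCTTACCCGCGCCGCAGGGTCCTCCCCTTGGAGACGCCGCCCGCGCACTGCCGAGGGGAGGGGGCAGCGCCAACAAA
Col4a2: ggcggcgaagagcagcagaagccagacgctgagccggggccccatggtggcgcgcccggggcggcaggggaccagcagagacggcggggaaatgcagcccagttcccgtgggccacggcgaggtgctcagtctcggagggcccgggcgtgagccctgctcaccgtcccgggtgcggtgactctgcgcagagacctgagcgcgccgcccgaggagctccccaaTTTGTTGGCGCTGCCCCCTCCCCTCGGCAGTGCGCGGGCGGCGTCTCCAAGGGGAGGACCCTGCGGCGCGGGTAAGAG
The start sites in this table lie 21 bases apart. The Col4a1 window holds 1 GC box and the Col4a2 window 3, of which 1 lies in the shared stretch, and both hold 1 CCAAT box and 0 TATA boxes by the letters given above.

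Laminins are trimers of an alpha, a beta and a gamma chain that start the assembly of a basement membrane, and Lamc1 encodes the gamma 1 chain that most of them contain. Lamc1 was at 1.98, 1.67 and 1.69 FPKM in control livers and at 1.29, 1.03 and 1.44 FPKM in lipophagy livers. The groups did not overlap, and lipophagy liver 3 was the nearest to the controls. The mean differed by -29.7% (1.78 ± 0.174 against 1.25 ± 0.209 FPKM, SD, n = 3), with a log2 change of -0.31 (SE 0.096, adjusted p = 0.177, limma). The unadjusted p of Lamc1 stayed below 0.05 in 6 of 6 fits that left out 1 liver each. The ratio of Lamc1 to Col4a1, which sets the laminin network against the collagen IV network, was 0.307, 0.296 and 0.263 in control livers and 0.259, 0.210 and 0.339 in lipophagy livers. Lipophagy liver 3 was the highest of all 6, and the groups overlapped. The difference of its log2 value was -0.13 (two-sided exact permutation test, p = 0.6, adjusted p = 0.6), and it was 0.041 without lipophagy liver 2.

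Lama5 encodes the laminin alpha 5 chain, the broadly expressed alpha chain of mature epithelial and vascular basement membranes. Lama5 was at 0.331, 0.366 and 0.307 FPKM in control livers and at 0.199, 0.226 and 0.159 FPKM in lipophagy livers. It was the lowest of the members and showed the largest proportional difference, -41.8% between the means (0.335 ± 0.0296 against 0.195 ± 0.0335 FPKM, SD, n = 3), without overlap. It was not among the tested genes. With no filter on low values its log2 change was -0.16 (SE 0.028, adjusted p = 0.251, limma), a value that the pseudocount of 1 compresses. On the scale of the means without a pseudocount, the log2 ratio was -0.78. The levels corresponded to an estimated 45 to 120 fragments per liver, with a counting error of 9.13% to 14.9%. Other alpha chains were low as well. Lama1 had means of 0.353 and 0.335 FPKM in control and lipophagy livers, Lama2 had means of 0.393 and 0.284 FPKM, Lama4 0.397 and 0.384 FPKM, and Lama3 0.607 and 0.559 FPKM, each with overlapping groups.

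Lamb1 and Lamb2 encode the alternative beta chains of these trimers, beta 2 being typical of vessels and neuromuscular sites. Lamb1 was at 1.80, 1.86 and 1.41 FPKM in control livers and at 1.69, 1.44 and 1.55 FPKM in lipophagy livers. All 3 lipophagy livers lay within the range of the controls, and the log2 change was -0.068 (SE 0.094, adjusted p = 0.709, limma). It ranged from -0.15 without control liver 3 to -0.022 without control liver 2, and it was 0.01 with quantile normalization. Lamb2 was at 0.885, 1.03 and 0.830 FPKM in control livers and at 0.761, 0.797 and 0.431 FPKM in lipophagy livers. Lipophagy liver 3 stood well below the other two, which lay just under the lowest control. The mean of Lamb2 differed by -27.5% (0.914 ± 0.103 against 0.663 ± 0.202 FPKM, SD, n = 3), with a log2 change of -0.21 (SE 0.11, adjusted p = 0.312, limma), and the log2 change was -0.10 without lipophagy liver 3 and -0.13 with quantile normalization. The ratio of Lamb1 to Lamb2 was 2.03, 1.81 and 1.70 in control livers and 2.22, 1.80 and 3.61 in lipophagy livers. Lipophagy livers 1 and 3 lay above all control livers, and lipophagy liver 3 stood well apart. The difference of the log2 ratio was 0.40 (two-sided exact permutation test, p = 0.3, adjusted p = 0.375). It was 0.12 without lipophagy liver 3 and 0.14 with a pseudocount of 1.

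Col18a1 and Col15a1 encode the multiplexins, collagens with heparan or chondroitin sulfate chains whose C-terminal fragments are endostatin and an endostatin-like domain. Col18a1 was at 135, 122 and 137 FPKM in control livers and at 154, 143 and 138 FPKM in lipophagy livers. The groups did not overlap, but control liver 3 and lipophagy liver 3 were nearly equal. The mean differed by 10.2% (131 ± 8.38 against 145 ± 8.13 FPKM, SD, n = 3), with a log2 change of 0.14 (SE 0.086, adjusted p = 0.39, limma). This change was 0.086 without control liver 2 and 0.096 without lipophagy liver 1, and it was -0.038 with quantile normalization. Rescaling each liver to the same sum of FPKM gave -0.042, which was 0.09 above the median of all tested genes under that scaling (-0.13). Against the collagen IV chain Col4a1, the next member in level, Col18a1 was 21.3 times as high in control livers and 30.7 times as high in lipophagy livers.

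Col15a1 was at 1.07, 1.40 and 1.36 FPKM in control livers and at 1.07, 1.15 and 0.873 FPKM in lipophagy livers. Control liver 1 lay among the lipophagy livers, so the groups overlapped. The mean differed by -19.0% (1.28 ± 0.176 against 1.03 ± 0.144 FPKM, SD, n = 3), with a log2 change of -0.16 (SE 0.094, adjusted p = 0.366, limma). The log2 change of Col15a1 was -0.23 without control liver 1, -0.10 without lipophagy liver 3 and -0.077 with quantile normalization. The ratio of Col18a1 to Col15a1 came to 126, 87.2 and 101 in control livers and 143, 124 and 158 in lipophagy livers. Control liver 1 lay above lipophagy liver 2, and the difference of the log2 ratio was 0.44 (two-sided exact permutation test, p = 0.2, adjusted p = 0.375).

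Col18a1 is read from 2 start sites that lie 52825 bases apart on chromosome 10, and the table gives 1 value for both. Their RefSeq windows (GRCm38.p6, minus strand) are printed to show how unlike the starts of this member are, with GC boxes in capitals. The upstream one is chr10:77166481-77166780 and the downstream one chr10:77113656-77113955.
Col18a1 upstream: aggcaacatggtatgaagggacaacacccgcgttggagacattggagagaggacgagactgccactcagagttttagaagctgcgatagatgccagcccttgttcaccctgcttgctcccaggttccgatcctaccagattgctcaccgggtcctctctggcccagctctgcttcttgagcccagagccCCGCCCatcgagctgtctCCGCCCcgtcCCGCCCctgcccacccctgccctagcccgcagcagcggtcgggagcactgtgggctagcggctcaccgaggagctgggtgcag
Col18a1 downstream: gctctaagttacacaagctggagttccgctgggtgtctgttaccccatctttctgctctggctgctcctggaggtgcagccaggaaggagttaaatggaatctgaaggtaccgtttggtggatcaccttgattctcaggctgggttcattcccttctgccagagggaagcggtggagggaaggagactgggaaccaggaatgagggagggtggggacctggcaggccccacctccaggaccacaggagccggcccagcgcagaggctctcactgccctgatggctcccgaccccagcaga
The upstream window holds 3 GC boxes and 1 CCAAT box and the downstream window 0 of either, and 0 TATA boxes were found in both. The part of each start in the Col18a1 level was not analysed here. Of the 10 members, 9 had a window in the RefSeq table.

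**Figure D2:**
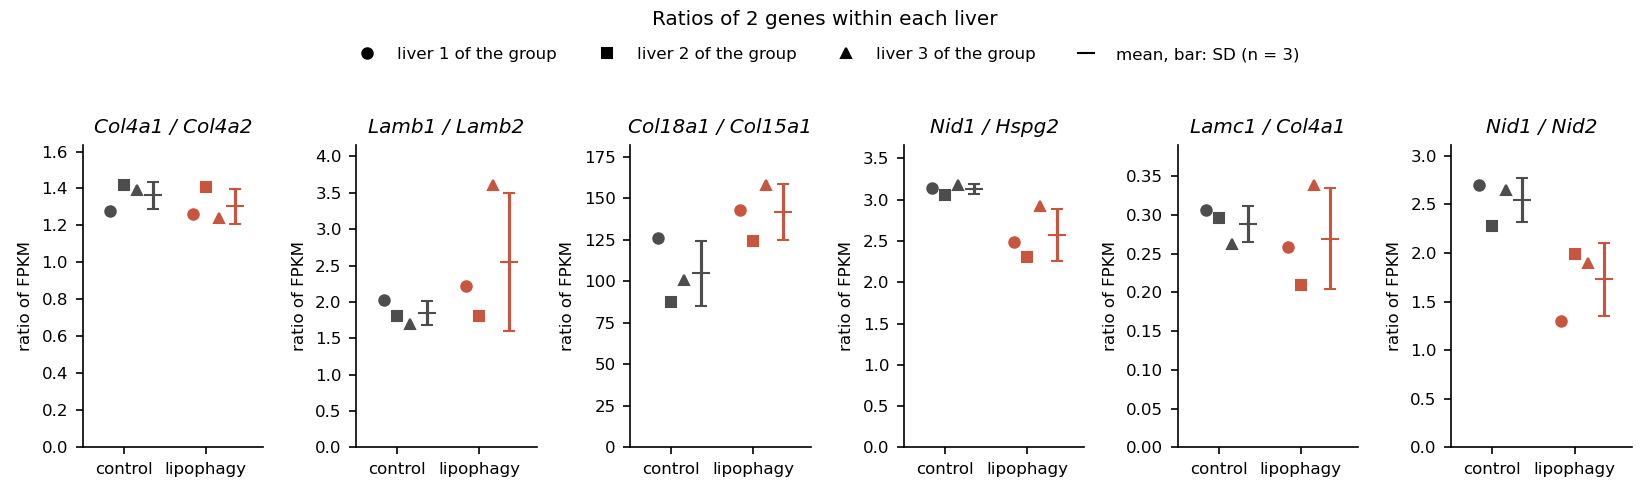
Ratio of the FPKM of 2 genes within each liver (y axis, from 0), with group mean and SD. Col4a1 to Col4a2 overlaps between the groups, Nid1 to Hspg2 and Nid1 to Nid2 are lower in all 3 lipophagy livers, and the high Lamb1 to Lamb2 value of 3.61 belongs to lipophagy liver 3.

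In level the members ranked from Col18a1 through Col4a1, Col4a2, Nid1, Lamc1, Lamb1, Col15a1, Hspg2 and Lamb2 to Lama5 by their means in control livers. Neighbours in this order were apart in both groups except Lamc1 and Lamb1 and also Hspg2 and Lamb2, whose livers overlapped in both groups. Lamb1 passed Lamc1 in the means of the lipophagy livers, where Lamc1 was at 0.803 times Lamb1, against 1.05 times in control livers. The livers differed in how extreme they were. Lipophagy liver 3 held the lowest value of 6 of the 10 members, and control livers 1 and 2 held the highest value of 4 and 5 members, respectively. Leaving out lipophagy liver 3 moved the median log2 change of the tested members from -0.21 to -0.11.

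The size of the changes depended on the pseudocount and on some of the scalings of the FPKM values. Scaling each liver to the same median left the median log2 change of the tested members at -0.21. With a pseudocount of 0.1, the log2 change of Nid1 was -0.59, that of Lamc1 -0.48 and that of Lamb2 -0.44. Rescaling each liver to the same sum (TPM) moved the median of all tested genes by -0.15. Relative to the median of all genes under that scaling, Nid1 was at -0.49, Col4a1 at -0.38, Lamc1 at -0.34, Col4a2 at -0.30, Lamb2 at -0.22, Col15a1 at -0.17, Hspg2 at -0.15, Lamb1 at -0.08 and Col18a1 at 0.09. Nid1 passed the adjustment under this rescaling (adjusted p = 0.0406, limma) and with a quality weight for each liver (adjusted p = 0.0459, limma). Over all tested genes, 104 passed under this rescaling and 39 with quality weights, against 3 in the main fit (limma). Nid1 did not pass with the other settings tried, where its adjusted p was between 0.0877 and 0.336 (limma).

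**Figure D3:**
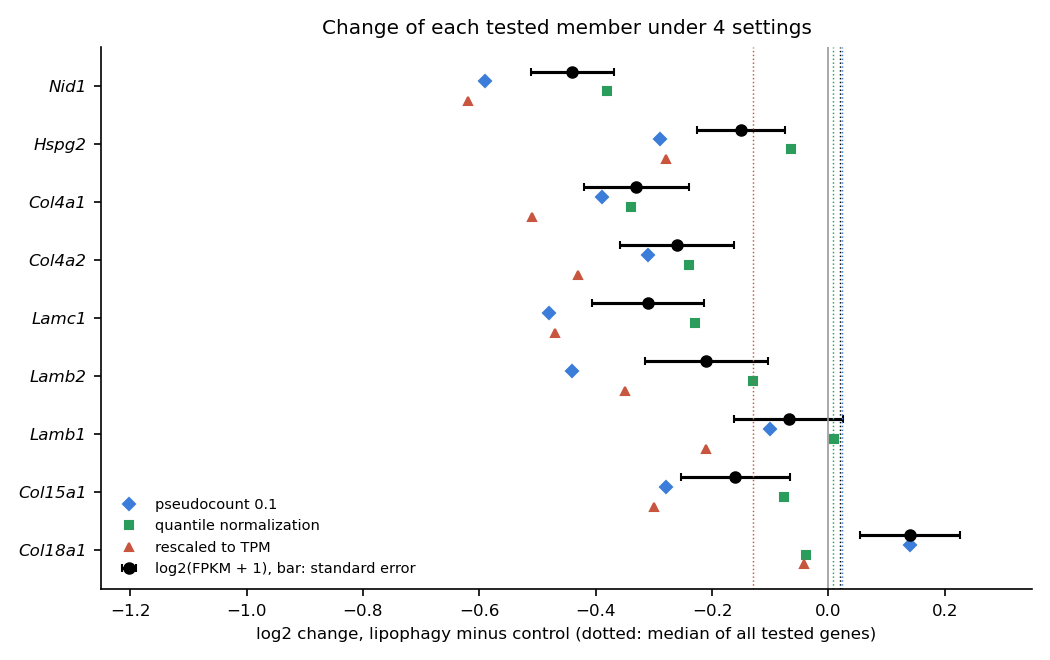
Log2 change (x axis, lipophagy minus control) of the 9 tested members with a pseudocount of 1 (black, bar: standard error), with a pseudocount of 0.1, with quantile normalization and after rescaling to TPM. Dotted lines show the median of all tested genes under each setting, and Nid1, Hspg2, Col4a1, Col4a2, Lamc1, Lamb2 and Col15a1 lie to the left of it under all 4, whereas Col18a1 is above 0 with both pseudocounts and below 0 under the other settings.

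Other components of the basement membrane were mostly too low to test. Of 27 further symbols found in the table, 10 passed the filter, and 8 of them had a lower mean in lipophagy livers. An unadjusted p below 0.05 (limma) with a lower mean was found for 3, against 7.97% of all tested genes. The median log2 change was -0.093 (-0.15 without control liver 1 and -0.007 with quantile normalization). Agrn, the proteoglycan agrin, went from 3.76 to 2.69 FPKM (log2 change -0.37, SE 0.092, adjusted p = 0.135, limma), and its groups did not overlap. Sparc, a collagen-binding matricellular protein, went from 37.7 to 30.2 FPKM (-0.31, SE 0.089, adjusted p = 0.161, limma), without overlap as well. Smoc1, a SPARC-related protein (0.26), and Tinagl1, a tubulointerstitial nephritis antigen-like matrix protein (0.12), had the largest higher values, both with overlapping livers. Lamb3, another laminin beta chain, had a log2 change of -0.14 with overlapping livers.

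Enzymes and carriers that fold, modify and export collagen chains did not share 1 direction. Of 18 tested genes, 9 were lower and 9 higher (median log2 change -0.056, and 0.014 without control liver 2). In each direction 2 had an unadjusted p below 0.05 (limma), against 7.97% lower and 11.5% higher over all tested genes. Serpinh1, the collagen chaperone HSP47, went from 15.8 to 10.3 FPKM (log2 change -0.56, SE 0.14, adjusted p = 0.14, limma). Loxl2, a lysyl oxidase that crosslinks collagen IV, went from 1.19 to 0.838 FPKM (-0.25, SE 0.072, adjusted p = 0.16, limma). Both were lower in all 3 lipophagy livers. Ppib, a prolyl isomerase of the endoplasmic reticulum (0.38), and P4hb, the beta subunit of prolyl 4-hydroxylase and a general protein disulfide isomerase (0.25), lay higher in all 3 lipophagy livers, with adjusted p of 0.213 and 0.233 (limma).

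Receptors for laminin and collagen IV had values in both directions. Of 15 tested genes, 8 were lower and 7 higher, with a median of -0.005 (-0.092 with quantile normalization). An unadjusted p below 0.05 (limma) was found for 3 lower and 1 higher, against 7.97% and 11.5% of all tested genes. Ddr1, a collagen-binding receptor tyrosine kinase, had the largest lower value (-0.55, SE 0.21) and Bcam, a receptor for laminin alpha 5, the next (-0.35, SE 0.18), both with overlapping livers. Sdc2, a syndecan (0.20), and Itgb1, the beta 1 integrin subunit common to most laminin and collagen receptors (0.094), had the largest higher values, and the livers of both did not overlap. Among proteases and inhibitors that act on basement membranes, 13 of 17 tested genes were lower (median -0.27). Of these, 8 had an unadjusted p below 0.05 (limma), against 7.97% of all tested genes in that direction. Mmp2, the gelatinase that cleaves collagen IV, went from 3.67 to 2.21 FPKM (-0.53, SE 0.15, adjusted p = 0.157, limma). Mmp7 had the largest lower value (-0.56, SE 0.61), with values from 0.358 to 4.77 FPKM that overlapped. Bmp1 (0.13) and Mmp19 (0.084) had the largest higher values.

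The fibrillar and associated collagens form the interstitial scar rather than the basement membrane. Of 12 tested genes, 11 were lower, and the median log2 change was -0.36, with values from -0.75 to 0.22. An unadjusted p below 0.05 (limma) with a lower mean was found for 8, against 7.97% of all tested genes. The basement membrane members, with a median of -0.21, ranged from -0.44 to 0.14, and the difference between the groups of genes was not tested. Col1a1, the main scar collagen, was at 5.91, 6.15 and 6.98 FPKM in control livers and 2.63, 3.99 and 3.61 FPKM in lipophagy livers. The ratio of Col4a1 to Col1a1 within a liver, chosen after the values were seen and not tested, was 1.09, 0.915 and 0.922 in control livers and 1.89, 1.23 and 1.18 in lipophagy livers.

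**Figure D4:**
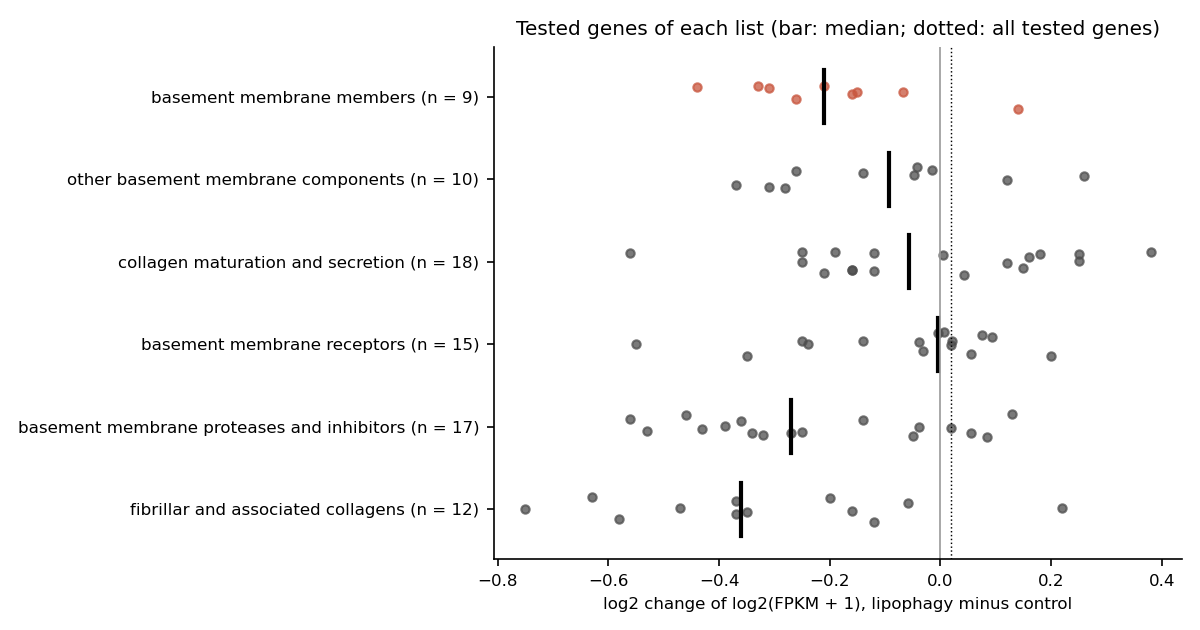
Log2 change (x axis, lipophagy minus control) of each tested gene in the basement membrane members and 5 related gene lists, with the median of each as a bar and the median of all tested genes as a dotted line. The medians run from -0.36 for fibrillar and associated collagens to -0.005 for receptors, and the members have theirs at -0.21.

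Markers of the cell types that make these proteins did not all move with them. Sinusoidal endothelial markers were higher in 11 of 12 genes (median log2 change 0.16). An unadjusted p below 0.05 (limma) was found for 0, against 7.97% lower and 11.5% higher over all tested genes. Their summed level was 73.1, 65.2 and 54.4 FPKM in control and 102, 66.3 and 67.7 FPKM in lipophagy livers. Lipophagy liver 1 stood apart, and lipophagy livers 2 and 3 lay within the range of the controls. General endothelial markers summed to 30.8 to 34.0 and 31.0 to 37.4 FPKM, with a median of 0.021 over 11 tested genes. Against 7.97% lower and 11.5% higher over all tested genes, 1 marker in each direction had an unadjusted p below 0.05 (limma). These were Cd34 (1.82 against 1.02 FPKM, log2 change -0.47, SE 0.11, adjusted p = 0.134, limma) and Egfl7 (9.66 against 11.1 FPKM, 0.19, SE 0.081, adjusted p = 0.255, limma), and the livers of both did not overlap. Stellate cell markers of the quiescent state, 7 lower and 5 higher, summed to 224 to 260 and 191 to 278 FPKM (median -0.06 over 12 genes). The largest lower values were those of Rgs5 (log2 change -0.37) and Pdgfrb, the PDGF receptor of stellate cells and pericytes (-0.32), each lower in all 3 lipophagy livers, and the largest higher values were those of Angptl6 (0.30) and Lrat (0.25), with overlapping livers. Markers of activated stellate cells and myofibroblasts were lower in 10 of 10 tested genes (median -0.43). An unadjusted p below 0.05 (limma) was found for 8, against 7.97% of all tested genes in that direction. In 8 all lipophagy livers lay below the controls, against 10.8% of all tested genes. Their sum was 192 to 307 FPKM in control and 127 to 233 FPKM in lipophagy livers. Most of each sum was Spp1, whose groups overlapped. Spp1 was at 131, 227 and 236 FPKM in control and 87.4, 187 and 97.7 FPKM in lipophagy livers. Of the 8 genes with an unadjusted p below 0.05, 4 (Timp1, Col1a1, Col1a2 and Col3a1) were also counted above among the proteases and inhibitors or the fibrillar collagens. The part of these cells in the values of the members was not tested.

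Bile duct markers differed between the groups too. They had lower means in 8 of 8 tested genes (median -0.42). Only 1 of these had an unadjusted p below 0.05 (limma), against 7.97% of all tested genes in that direction. The bile duct markers summed to 25.4, 33.9 and 33.5 FPKM in control livers and 19.5, 29.8 and 19.6 FPKM in lipophagy livers. For Krt19, the bile duct keratin, the values were 1.91, 4.16 and 4.05 FPKM in control and 1.43, 3.36 and 1.37 FPKM in lipophagy livers. The part of bile duct cells in the members was not tested. Hepatocyte markers were higher in 9 of 12 genes (median 0.26), and 5 lay above all controls in all 3 lipophagy livers, against 15.4% of all tested genes. They summed to 68600 to 75800 FPKM in control and 81400 to 104000 FPKM in lipophagy livers. The largest part was Alb, at 38600, 35500 and 39200 FPKM in control and 64100, 45000 and 49100 FPKM in lipophagy livers. Smooth muscle markers, of which 3 of 8 were tested and Myocd was at 0, summed to 9.90 to 11.7 and 8.32 to 9.51 FPKM, and mesothelial markers, of which 1 of 6 was tested and Upk1b was at 0, to 2.41 to 4.72 and 1.63 to 3.78 FPKM. The tested mesothelial gene was Krt19, also a bile duct marker, which made up 79.3% to 88.9% of that sum in each liver. Macrophage markers summed to 579 to 661 and 541 to 583 FPKM (9 of 13 lower), and lymphocyte markers to 5.12 to 7.12 and 4.68 to 5.40 FPKM (2 of 3 lower).

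**Figure D5:**
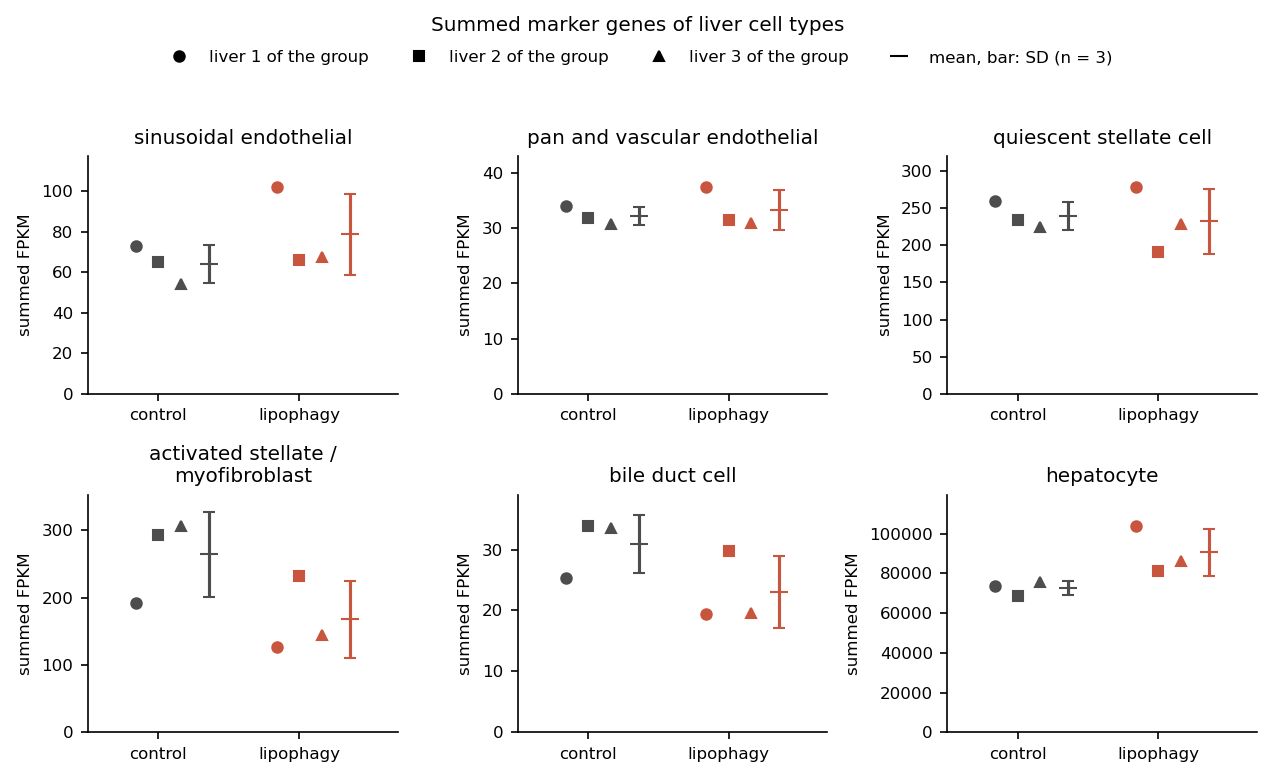
Summed FPKM (y axis, from 0) of the marker genes of 6 liver cell types or states in each liver, with group mean and SD. Endothelial and quiescent stellate sums overlap between the groups, and hepatocyte sums are higher in the lipophagy livers. Bile duct sums are low in control liver 1 and lipophagy livers 1 and 3. Spp1 makes up most of the activated stellate sum, and Alb is the largest part of the hepatocyte sum.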

How the data were processed

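Poly(A) RNA of 6 livers was sequenced in paired-end mode, on a HiSeq instrument per the labels and a NovaSeq instrument per the methods of the study. The authors deposited 1 row per gene symbol, with an FPKM value for each liver, and their processing notes name TopHat2 2.0.13, Bowtie2 2.2.3, SAMtools 0.1.19, Cufflinks 2.2.1 and mm10. The annotation is not given in the sources used here. Of the 24346 rows, 7161 were at 0 in all livers, and 27 had a name that reads as a date, 2 of them repeats of another such name. They were kept as separate rows. Spearman correlations between livers were 0.979 to 0.982, and 0 pairs of livers held identical values.

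Genes whose mean reached 0.5 FPKM were compared on the log2(FPKM + 1) scale in limma 3.58.1 under R 4.3.3 (moderated variance with an intensity trend, no covariate, two-sided). Ratios of 2 genes within a liver were compared with two-sided exact permutation tests (scipy 1.17.1). The members and gene lists were chosen with earlier results of these data known. The genes named were all members and, from each list, tested genes among the 2 with the largest lower and the 2 with the largest higher change. Nid2, the other collagen IV and laminin chains, 2 markers at 0, Timp1, Col3a1 and Alb lie outside this rule and were chosen after their values were seen. A further gene of the lists is not reported here. Fragments were estimated from the steps in low FPKM values of genes with 1 GENCODE M21 transcript, taking 200 bases off its length. Between 70.5% and 76.5% of the low values then lay within 0.1 of a whole fragment, and the estimates cover counting error only. Taking off 150 or 250 gave 22600000 to 33700000 and 24200000 to 35700000 fragments. The procedures were tested on simulated data. Python 3.11.15 was used for tables (pandas 2.3.3), arrays (numpy 2.4.6) and figures (matplotlib 3.10.9).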

Additional observations from a re-analysis of the deposited data

How the results depend on the processing

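Under 17 other settings, 148 of 151 recomputed log2 changes of tested members kept their sign. The exceptions were Col18a1 with quantile normalization (-0.038) and after rescaling to TPM (-0.042, 0.09 above the median of all genes, which that scaling lowered), and Lamb1 with quantile normalization (0.010). The median change of the members was -0.31 and -0.29 with a pseudocount of 0.1 and 0.5, -0.26 with a mean of at least 1 FPKM (7 members tested), -0.13 with quantile normalization and -0.35 after rescaling to TPM, and it ranged from -0.25 to -0.11 with 1 liver left out. Members whose lipophagy livers all lay below the controls numbered 3 with quantile normalization, in place of 6 (10.2% and 10.8% of all tested genes). After rescaling to TPM they numbered 7, but the share of all tested genes was then 27.2%. They numbered 4 of 7 with a mean of at least 1 FPKM (9.81%). With a mean of at least 0.1 FPKM (11.4%) and with no filter on low values (7.19%) they numbered 7 of 10. With 1 liver left out they numbered 6 to 7, but the share of all tested genes was then 14.3% to 18.5%. Members with an unadjusted p below 0.05 and a lower mean numbered 7 after rescaling to TPM, in place of 4 (21.8% and 7.97% of all tested genes), 6 of 10 with no filter on low values (5.33%), 5 of 10 with a mean of at least 0.1 FPKM (8.18%), and 3 to 4 with 1 liver left out (5.24% to 8.20%), and 0 had a higher mean in these fits. After adjustment 1 member, Nid1, passed with TPM and 1, again Nid1, with quality weights (limma), and 0 did with any liver left out. Across all tested genes, 916 were lower and 1327 higher at an unadjusted p below 0.05, against 899 and 745 with quantile normalization and 2506 and 236 after rescaling to TPM, and 3, 4 and 104 genes passed the adjustment (limma), with 39 under quality weights. The log2 ratio of Lamc1 to Col4a1 differed by 0.024 with a pseudocount of 1 and by -0.31 to 0.041 with 1 liver left out. Left out in the same way, the other ratios ranged from -0.13 to -0.035 for Col4a1 to Col4a2, 0.12 to 0.62 for Lamb1 to Lamb2, 0.32 to 0.59 for Col18a1 to Col15a1 and -0.38 to -0.22 for Nid1 to Hspg2. The ends of the Lamc1 range came from leaving out lipophagy liver 3 and lipophagy liver 2. The median of the collagen maturation list ranged from -0.088 to 0.014 and that of the receptors from -0.069 to 0.021. The cause of these differences was not tested. Same-numbered livers had correlated deviations of 0.25, 0.234 and -0.0565, so the numbers were not taken to pair the livers. With the replicate block the members' median was -0.21, 4 had an unadjusted p below 0.05 and a lower mean (7.93% of all tested genes) and 0 passed the adjustment, while 43 genes passed over the whole table in place of 3. At the estimated depth, counting error limits Lama5 and Lamb2 most, with as few as 45 and 59 fragments in a liver.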
